A study of Solanum lycopersicum with 8 samples.

Results

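Mature leaf of the tomato accession AV was set against mature leaf of the accessions TM, SK and RJ. AV leaf is 1 of 8 arrays in the study, which also holds 1 leaf array for each of the other accessions and 1 ripe fruit array for each of the 4 accessions. The members compared were the probes well above background on all 4 leaf arrays, 4625 of 33750 non-control probes. Of these, 657 could be assigned to 329 genes through RefSeq, and 264 of those genes carry a name rather than a locus number.

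Per the labels, AV came from RTGR in Hyderabad, TM from Kashmir, SK from Chatha and RJ from Rajouri, the last 2 in Jammu province. All are accessions of cultivated tomato, and the tissue of each leaf sample was the whole mature leaf. The labels give no treatment, plant age, number of plants or pooling. Total RNA was extracted with TriZol, turned into Cy3-labelled cRNA and read on a one-colour Agilent oligonucleotide array. The accessions differ in how their fruit matures and in the carotenoids of the ripe fruit, and the comparison described here asks how far the leaf of AV stood from the leaves of the other accessions.

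A mature leaf is a photosynthetic organ whose mesophyll cells devote much of their RNA to light harvesting and carbon fixation, and whose chloroplasts need carotenoids for photoprotection. Catalase of leaf peroxisomes removes the hydrogen peroxide of photorespiration, and cryptochromes and phototropins are blue light receptors. Many transcription factors and signalling proteins of leaves, such as members of the WRKY and CBF families, respond quickly to cold, wounding or pathogens.

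Each value below is the log2 processed signal relative to the 75th percentile of its array, so that a difference of 1 is a 2-fold difference. Each accession had a single leaf array, so values are described without a test. The spread among TM, SK and RJ leaf stands in for an error, and it is a spread between accessions. Between 17.2% and 24.4% of the probes were well above background on the leaf arrays, with 20.1% on AV leaf, and the lowest scaled signal well above background was -3.40 on AV leaf. All 4 leaf arrays lay on 1 slide, and no non-control spot was saturated. In bulk leaf RNA, fewer cells of a type and less RNA per cell cannot be told apart. The leaf label was checked against marker genes. All 5 mesophyll genes on the array were above background on every leaf array, with a summed linear signal, relative to the same percentile, of 21.2 in AV leaf, 13.8 to 19.4 in the other leaves and at most 0.432 in fruit. Of 13 ripe fruit markers 2 were above background on AV leaf, Psy1 and Cel2, with a summed signal of 0.378 for the list, against 0.258 to 0.360 in the other leaves and 32.2 to 83.7 in fruit.

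AV leaf had the most probes past 2-fold of the leaf arrays, in either direction. It differed from the mean of the others by at least 2-fold in 859 of 4625 probes (18.6%), of which 494 were higher (10.7%) and 365 lower (7.89%). Set against the mean of its own other 3, TM leaf was higher in 191 probes (4.13%) and lower in 32 (0.692%), SK leaf in 276 (5.97%) and 344 (7.44%), and RJ leaf in 185 (4%) and 266 (5.75%). These comparisons share arrays. A stricter count asks for 2-fold beyond every other leaf. It held for 245 probes above (5.3%) and 173 below (3.74%) in AV leaf, for 106 (2.29%) and 113 (2.44%) in SK leaf, for 9 (0.195%) and 47 (1.02%) in RJ leaf, and for 6 (0.13%) and 2 (0.0432%) in TM leaf. Without SK leaf as a reference the 173 became 344. Across probes, which are not independent replicates, AV leaf correlated with TM, SK and RJ leaf at r = 0.81, 0.79 and 0.80. The other pairs stood at 0.96 for TM with RJ, 0.89 for TM with SK and 0.85 for SK with RJ, so that each pair with AV lay below each pair without it.

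**Figure D1:**
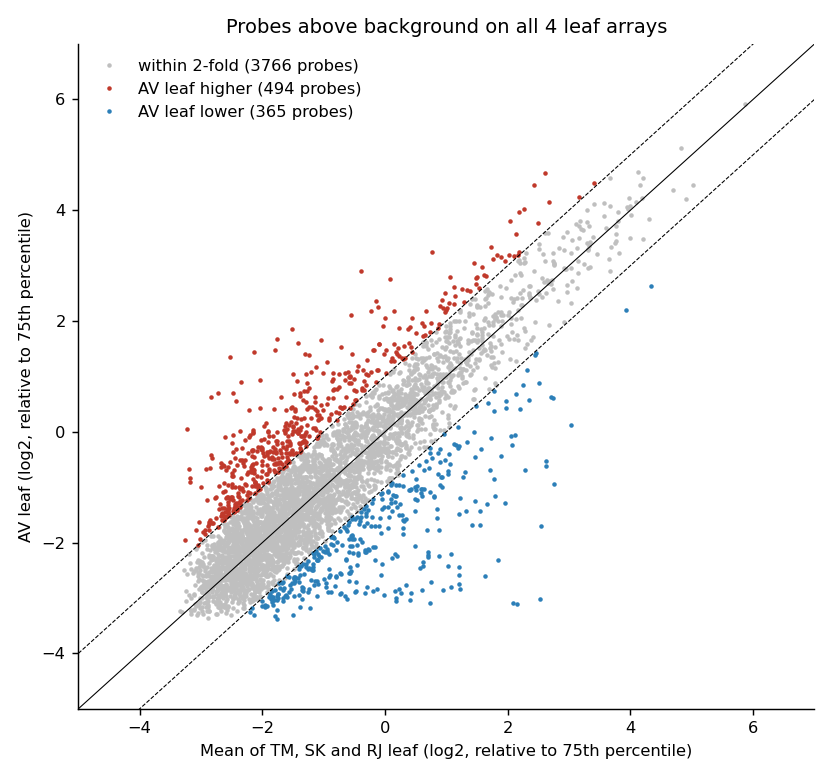
Signal of each of the 4625 probes in AV leaf (vertical axis, log2 relative to the 75th percentile) against the mean of TM, SK and RJ leaf (horizontal axis, same unit), with dashed lines at a 2-fold difference. The 494 probes above the upper line (red) lie close to it, while the 365 below the lower line (blue) reach larger differences and run along the lower edge of the measured signals of AV leaf.

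**Figure D2:**
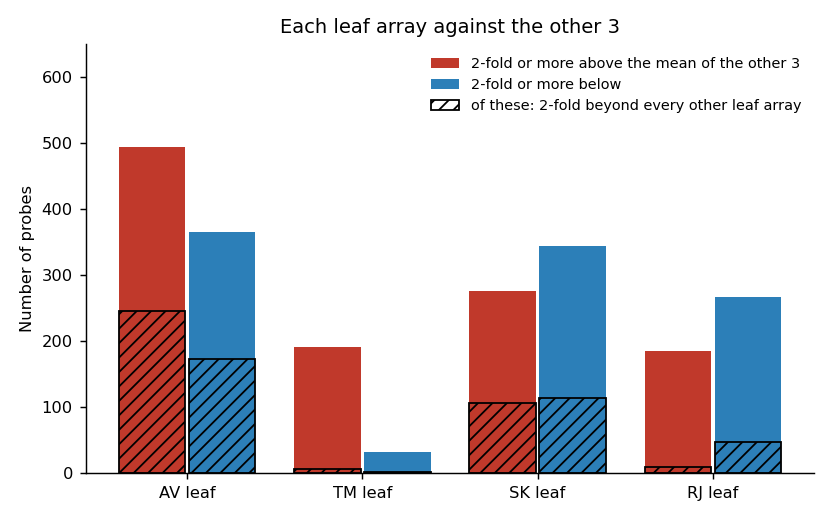
Number of probes at least 2-fold above (red) or below (blue) the mean of the other 3 leaf arrays, for each leaf array in turn; hatched bars count those that were also 2-fold beyond every other leaf array. AV leaf has the tallest bars, with 494 and 365 probes, and TM leaf the fewest probes below, 32.

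The largest differences were on the low side of AV leaf. At a 4-fold minimum 74 probes were higher and 84 lower, at 8-fold 12 and 34, and at 16-fold 0 and 7. The median difference over all 4625 probes was 0.09. The SD among TM, SK and RJ leaf had a median of 0.34 over all probes, 0.41 over the probes higher in AV leaf and 0.55 over those lower. The probes that were low in AV leaf were therefore also more uneven among the other accessions. SK leaf was the nearest of the other leaves to AV leaf in 225 of the 365 lower probes (61.6%), RJ leaf in 112 and TM leaf in 28. For the 494 higher probes the counts were close to even, with TM leaf nearest in 186, RJ leaf in 160 and SK leaf in 148. The nearest leaf was not counted over all 4625 probes. Of these, SK leaf lay below every other leaf in 30.1%, RJ leaf in 34.5% and TM leaf in 8.93%.

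Named genes are here the 329 genes matched through RefSeq, locus symbols included. Of these, 46 were at least 2-fold higher in AV leaf (14%) and 32 lower (9.73%), and the other 251 lay within 2-fold of the mean of the others. The median difference over all named genes was 0.14. AV leaf lay above every other leaf in 45 of the 46 (13.7% of all named genes) and below every other leaf in 29 of the 32 (8.81%). The exceptions were PR1b1, pip1 and CHI3, described with their groups, and LOC778320, where SK leaf (-0.86) lay below AV leaf (-0.72). Of the 78 genes, 48 rest on a single probe.

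**Figure D3:**
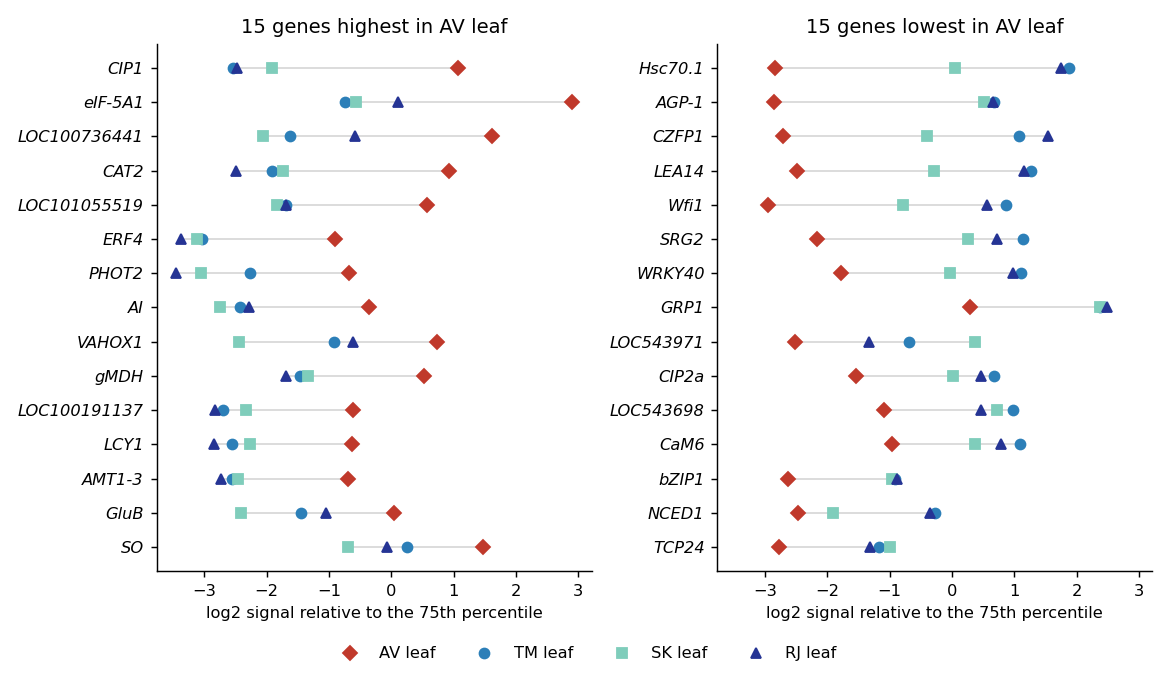
Log2 signal relative to the 75th percentile in AV leaf (red diamonds) and in TM (circles), SK (squares) and RJ leaf (triangles) for the 15 named genes furthest above (left) and the 15 furthest below (right) the mean of the other leaves. In the left panel TM, SK and RJ leaf mostly cluster, and in the right panel SK leaf often sits between AV leaf and the other accessions.

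Genes of light perception stood out on the high side. PHOT2 encodes a phototropin, a blue light receptor kinase that steers chloroplast movement and stomatal opening. Read by 1 of its 4 probes, it lay at -0.67 in AV leaf, -2.26 in TM, -3.05 in SK and -3.45 in RJ leaf. AV leaf was 4.75-fold above the mean of the others. The cryptochrome gene Cry1b, read by 1 of 7 probes, lay at -0.59 in AV leaf, -2.03 in TM, -2.35 in SK and -2.12 in RJ leaf. CRY1A, a second cryptochrome gene read by 6 probes, lay at -0.55, -1.58, -1.80 and -1.64. In all 3 genes AV leaf lay above every other leaf by about 1 or more on the log2 scale, while the other leaves lay close together for the cryptochromes and further apart for PHOT2. The remaining members lay within 2-fold. PHOT1, the other phototropin gene, was 0.67 above the others, with SK leaf the lowest, CUL4 was 0.18 above and PHYA, the phytochrome A gene, 0.02 above. CIP1 was placed in the list by its symbol alone. It had the largest difference upward of the named genes, with 1.07 in AV leaf, -2.54 in TM, -1.92 in SK and -2.48 in RJ leaf, 10.4-fold over 3 of its 4 probes. With it 4 of 7 measured members were higher and 0 lower, with a median of 1.12, and without it 3 of 6, with a median of 0.90. No other list had so high a median, although with so few members 1 gene moves it.

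Genes of carotenoid synthesis were mostly a little higher in AV leaf. Of 11 measured members 10 lay above 0, with a median difference of 0.43 beside 0.14 for all named genes, but 2 passed 2-fold upward and 1 downward. LCY1, the lycopene beta-cyclase gene that turns red lycopene into the beta-carotene branch, lay at -0.64 in AV leaf and at -2.55, -2.26 and -2.85 in TM, SK and RJ leaf, a 3.78-fold difference from 1 of its 8 probes. PSY2, the phytoene synthase gene used in leaves, lay at -0.99 against -2.13, -1.98 and -3.02, or 2.61-fold higher on 1 of 4 probes. Both were clear of the other leaves, and the isoprenoid genes upstream pointed the same way at smaller size, with HDR 0.95 and DXR 0.85 above the others. The exception was NCED1, which cleaves carotenoids to make abscisic acid and has its place with the stress genes below. CCD1B, a carotenoid cleavage dioxygenase gene, was above background on AV leaf and on no other leaf, at least 3.55-fold higher, and was above background on all 4 fruit arrays.

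Photosynthesis genes were also mostly a little higher in AV leaf than the mean of the others. Their median difference was 0.37 beside 0.14 for all named genes, and 6 of 7 lay above 0. Of all 329 named genes 14% were at least 2-fold higher, so the count past 2-fold does not set this list apart. Of 7 measured members 1 passed 2-fold, CAB4, a chlorophyll a/b binding protein gene of the light-harvesting antenna, which lay at 2.98 in AV leaf and at 2.10, 1.70 and 1.78 in TM, SK and RJ leaf over 7 probes, a difference of 1.12 that was 0.91 on its brightest probe. PSBR, a photosystem II subunit, was 0.64 above the others, SBPASE, a Calvin cycle enzyme, 0.43, PSBP 0.37 and AGPL3 0.36, while CAB6A was 0.19 above and PsbQ lay at -0.01. PSBP, CAB6A and PsbQ were higher in TM leaf than in AV leaf, so that the group had no common order among accessions. AV leaf lay above every other leaf in 3 of the 7, and the list's median level was 2.03 in AV leaf and 2.10 in TM leaf. GLK1 and GLK2, transcription factors that drive chloroplast development, were above background on AV leaf alone. GLK1 lay at -1.48 there and at -4.67, -4.45 and -5.54 in TM, SK and RJ leaf, at least 4.24-fold higher over 5 of its 7 probes. GLK2 was at least 1.56-fold higher on 1 of its 6 probes. CO1, a CONSTANS-like gene, was likewise above background on AV leaf alone, at -1.54 against -6.02, -5.41 and -5.89, at least 4.08-fold.

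Peroxisomal and redox genes split. CAT2, a catalase gene that removes hydrogen peroxide, lay at 0.93 in AV leaf and at -1.91, -1.73 and -2.48 in TM, SK and RJ leaf, 7.83-fold higher on 1 of 4 probes. Another catalase gene, cat1, lay at 1.04 in AV leaf with 0.78 in TM, -0.55 in SK and 1.91 in RJ leaf, inside the range of the others over 11 probes. The glyoxysomal malate dehydrogenase gene gMDH lay at 0.53 against -1.47, -1.34 and -1.69, a 4.08-fold difference over 2 probes, and mdh was 0.86 above the others. Catalase signal was thus high in AV leaf for CAT2 and not for cat1. Wfi1, which encodes a whitefly-induced NADPH oxidase of the kind that makes superoxide, went the other way, at -2.95 in AV leaf and at 0.87 in TM, -0.78 in SK and 0.57 in RJ leaf, a difference of -3.17. The peroxidase gene CEVI-1 was 1.06 higher, or 0.60 without SK leaf, and the ascorbate peroxidase genes APX1 and APX2 had differences of -0.93 and -0.79, inside 2-fold. In all, 2 of 14 redox genes were higher, 1 lower and 11 within 2-fold, with a median of 0.17 that was -0.03 without SK leaf.

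Genes of sulfur, nitrogen and carbon metabolism lay on both sides. SO, the sulfite oxidase gene, lay at 1.47 in AV leaf and at 0.24, -0.70 and -0.07 in TM, SK and RJ leaf. AMT1-3, an ammonium transporter gene, lay at -0.69 against -2.56, -2.46 and -2.74, and its relative AMT1-2 was above background on AV leaf alone, at least 3.15-fold higher. AMT1-2 rests on 1 of 2 probes and was picked by that detection, so its rank adds no support to AMT1-3. AI, the acid invertase gene that splits sucrose, lay at -0.36 against -2.42, -2.74 and -2.29, 4.36-fold higher on 1 of 8 probes. AI was also the highest in AV fruit, at 3.85 with 0.75 to 1.98 in the other fruits. CIF1, an invertase inhibitor gene, lay at 0.48 in AV leaf, -0.27 in TM, -2.33 in SK and -0.53 in RJ leaf, so that an invertase and an inhibitor were both high, and the size of the CIF1 difference (1.52) was 0.87 without SK leaf. ME1, an NADP-malic enzyme gene, was 1.24 higher. Of all 596 named genes above background on any leaf, 4.53% were so on AV leaf alone and 7.72% on all leaves but AV. Among 16 sugar and starch genes the counts were 0 and 3. The 3 were hxk1 (at least 3.91-fold lower in AV leaf), HT1 (at least 2.74-fold) and ST3 (at least 2.66-fold). AADC1B, of the nitrogen list, was likewise at least 4.83-fold lower. None of the 15 measured genes of amino acid, nitrogen and polyamine metabolism passed 2-fold in either direction, with a median of 0.15.

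Protein synthesis genes were mostly level. eIF-5A1, a translation factor gene, lay at 2.90 in AV leaf and at -0.74, -0.56 and 0.11 in TM, SK and RJ leaf, 9.82-fold above their mean on 1 of 2 probes. In fruit it lay between 2.54 and 3.93, so that AV leaf reached the fruit level and the other leaves did not. Its relatives eIF-5A2, eIF-5A3 and eIF-5A4 were 0.49, 0.60 and 0.77 above the others. Of 18 measured members 16 lay within 2-fold, and UBC3, which encodes a ubiquitin-conjugating enzyme, had a difference of -1.12. None of 7 housekeeping genes passed 2-fold, with a median of -0.01, among them GAPDH at 0.29 and the tubulin gene TUB at -0.93.

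Hormone lists gave scattered members. ERF4, an ethylene response factor gene, lay at -0.90 in AV leaf and at -3.04, -3.11 and -3.37 in TM, SK and RJ leaf, 4.84-fold higher, and was above background on no fruit array. ERF6, another member of that family, was 1.23 higher in leaf and ACO6, an ethylene-forming oxidase gene, 1.13, but 0.92 and 0.65 without SK leaf. Of 15 measured ethylene genes these 3 were higher, 0 lower and 12 within 2-fold, with a median of 0.39. Of 28 ethylene genes above background on any leaf, 2 were so on all leaves but AV and 0 on AV leaf alone. These counts lay near the shares over all 596 named genes, 7.72% and 4.53%. The 2 were ER5 (at least 3.54-fold lower) and ERF2 (at least 1.59-fold). In the jasmonate list, the receptor gene COI1 (1.06, or 0.94 without SK leaf) and the reductase gene OPR1 (1.11, or 0.63 without the filter on dim probes) were higher, OPR3 lay at 0.01 and HPL, a hydroperoxide lyase gene, at -0.26. AOS2, which encodes an allene oxide synthase of jasmonate formation, was above background on all leaves but AV, at least 2.92-fold lower there. None of 7 auxin genes passed 2-fold, with a median of -0.27, and neither did the 2 measured gibberellin, cytokinin and brassinosteroid genes.

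On the low side, several genes had the same order among the accessions. Hsc70.1, a gene of the cytosolic chaperones of the heat shock cognate 70 family, had the largest difference downward of the named genes, with -2.83 in AV leaf, 1.88 in TM, 0.05 in SK and 1.74 in RJ leaf, 16.6-fold lower on 1 of 2 probes. CZFP1, a zinc finger gene, lay at -2.71 in AV leaf and at 1.08, -0.39 and 1.55. LEA14, a late embryogenesis abundant gene also used as a seed marker, lay at -2.48 against 1.27, -0.29 and 1.15. All 3 had the same order, with AV leaf lowest, SK leaf next and TM and RJ leaf close together at the top. The same held for WRKY40, a defence-related transcription factor gene (-1.78 in AV leaf, 1.10 in TM, -0.04 in SK and 0.98 in RJ leaf). AV leaf was also lowest and SK leaf next in SRG2, a senescence-related gene (-2.17, 1.13, 0.26 and 0.72). So they were in CaM6, a calmodulin gene of calcium signalling (-0.96, 1.09, 0.37 and 0.78). In SRG2 and CaM6, RJ leaf lay about midway between SK and TM leaf. Over all 32 lower genes, SK leaf was the nearest to AV leaf in 23 (71.9%), RJ leaf in 8 and TM leaf in 1. Over the 46 higher genes SK leaf was nearest in 10 (21.7%), and the share over all named genes was not counted.

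Some genes were low in AV leaf alone. AGP-1, an arabinogalactan protein gene of the cell surface, lay at -2.86 in AV leaf and at 0.67, 0.51 and 0.65 in TM, SK and RJ leaf, 11.1-fold lower with an SD of 0.09 among the others. GRP1, a glycine-rich protein gene, lay at 0.28 against 2.37, 2.37 and 2.48. The transcription factor genes bZIP1 (-2.62 against -0.91, -0.96 and -0.88) and TCP24 (-2.77 against -1.17, -0.99 and -1.32) followed the same form, in which the other leaves could hardly be told apart and AV leaf stood well below them. CIP2a lay at -1.54 against 0.67, 0.01 and 0.46.

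Of 23 measured transcription factor genes 3 were higher (ERF4, VAHOX1 and ERF6), 5 lower (CZFP1, WRKY40, bZIP1, TCP24 and WRKY81) and 15 within 2-fold, with a median of -0.01. VAHOX1, a homeobox gene, lay at 0.73 in AV leaf, -0.92 in TM, -2.44 in SK and -0.61 in RJ leaf. WRKY81 had a difference of -1.34, and of -0.98 when TM leaf was left out. By detection, 4 of 48 transcription factor genes were above background on AV leaf alone (CO1, FUL1, GLK1 and GLK2) and 8 on all leaves but AV (CBF1, ERF2, GRAS1, GRAS4, GRAS6, TCP3, WRKY41 and ZF2). Over all 596 named genes above background on any leaf, the shares were 4.53% and 7.72%. CBF1, which switches on cold response genes, lay at 0.95 in TM, -0.61 in SK and 1.14 in RJ leaf and was not well above background in AV leaf, at least 14.9-fold lower. GRAS4 was at least 10.6-fold lower, TCP3 at least 7.31-fold, ZF2 at least 6.39-fold and WRKY41 at least 4.95-fold.

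Abscisic acid, signalling and defence genes were mixed. NCED1, of abscisic acid synthesis, lay at -2.47 in AV leaf and at -0.27 in TM, -1.91 in SK and -0.35 in RJ leaf, so that SK leaf was nearly as low. With LEA14 it made 2 of 9 genes of that list lower, and the median was 0.08. SDH, placed in the list by its symbol alone, was 1.05 higher, or 0.65 without the filter on dim probes. Of 15 calcium, MAP kinase and receptor genes CaM6 alone passed 2-fold. MPK3, a MAP kinase gene activated in defence and wounding, was above background on all leaves but AV, lower there by at least 2.32 on the log2 scale. Among 11 measured pathogenesis-related and wound genes 3 were higher and 3 lower. GluB, a basic beta-1,3-glucanase gene, lay at 0.04 in AV leaf against -1.45, -2.41 and -1.05, while MLO1 had a difference of -1.41. PR1b1 lay at 2.36 in AV leaf, 2.55 in TM, -1.06 in SK and 2.43 in RJ leaf, and its difference of 1.05 became -0.13 without SK leaf. CHI3, a chitinase gene, lay at -1.46 in AV and -1.48 in SK leaf, against 0.34 in TM and 0.78 in RJ leaf, and its difference of -1.35 was -2.02 without SK leaf and -0.90 without RJ leaf. SK leaf therefore decided the first of these values and shared the second with AV leaf.

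Heat shock genes other than Hsc70.1 gave no common direction. HSC80, a chaperone gene of the 90-kDa family read by 14 probes, lay at 0.40 in AV leaf and at -1.05, -1.03 and -0.65 in TM, SK and RJ leaf, a difference of 1.31 that was 0.91 on its brightest probe, and Hsp90-1 of the same family was 0.80 above the others. BiP/grp78, a chaperone gene of the endoplasmic reticulum, had a difference of -0.97, and 6 of 8 members lay within 2-fold.

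Among the transport genes, the measured water channel genes lay mostly below the mean of the others. Aqp2 lay at -1.40 in AV leaf and at -0.25, 0.01 and 0.07 in TM, SK and RJ leaf, and PIP2-7 at -1.76 against -0.86, -0.11 and -1.15, 2.54-fold and 2.07-fold lower, where the second was -0.75 on the log2 scale without SK leaf. The aquaporin gene pip1 lay at -1.65 in AV and -1.84 in SK leaf, with 0.40 in TM and 0.55 in RJ leaf, a difference of -1.35 that was -2.12 without SK leaf and -0.93 without RJ leaf. PIP1-3 (-0.11), TIP2-2 (-0.44) and PIP2-9 (-0.53) lay within 2-fold. PIP1-5 alone of the measured water channel genes was higher, by 1.01, or 0.83 on its brightest probe. XIP1-1-beta was above background on AV leaf alone, at least 2.36-fold higher. It was picked by that detection, so it adds nothing on the direction of the family. Over the transport list 2 of 15 were higher, 4 lower and 9 within 2-fold, with a median of -0.44.

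Cell wall genes showed their differences mainly through detection. Among 10 measured members XET2, a xyloglucan endotransglycosylase gene, was 1.40 higher, the endoglucanase gene CEL8 1.18 higher (0.65 without the filter on dim probes) and GRP1 lower. Their median was 0.30, and -0.33 where probes above background on AV leaf or on the other 3 entered. Of 28 cell wall genes above background on any leaf array, 2 were so on AV leaf alone and 8 on all leaves but AV. Over the 596 named genes the counts were 27 and 46, the shares given above. EXP2, an expansin gene of wall loosening, lay at -1.33 in AV leaf and at -5.59, -5.10 and -5.36 in TM, SK and RJ leaf, at least 4.72-fold higher, and TBG3, a beta-galactosidase gene, was at least 3.41-fold higher. The pectin methylesterase gene PMEU1 lay at 0.39, -0.07 and 0.15 in TM, SK and RJ leaf and was not well above background in AV leaf, at least 11.8-fold lower. XTH3, tXET-B2 and tXET-B1, of xyloglucan remodelling, were at least 8.34-fold, 6.96-fold and 4.57-fold lower, and EXLA1, TBG7, exp18 and exp9 made up the 8.

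**Figure D4:**
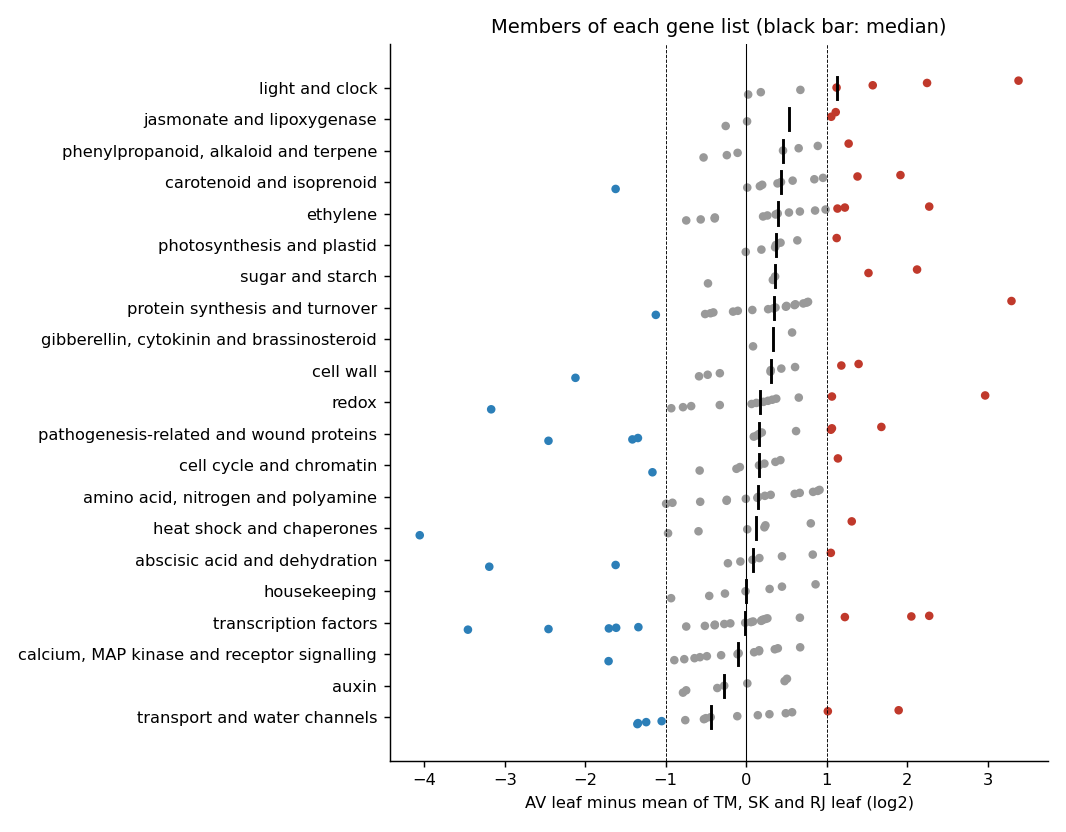
Difference between AV leaf and the mean of TM, SK and RJ leaf (log2, horizontal axis) for each measured member of 21 gene lists, ordered by list median (black bars), with dashed lines at 2-fold. Red points were at least 2-fold higher and blue points at least 2-fold lower in AV leaf; the light list has the highest median, 1.12, and the transport list the lowest, -0.44. The housekeeping and transcription factor medians of -0.01 turned to 0.10 and 0.09 under spike-in scaling.

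Probes above background on one side only could not enter the comparison and were counted apart. Of 9201 probes above background on any leaf array, 632 were above it on AV leaf alone (6.87%) and 555 on all leaves but AV (6.03%). Leaving out TM leaf gave 1040 on AV leaf alone, and leaving out SK leaf 1247 on all leaves but AV. By the same counts TM leaf stood alone in 733 probes, SK leaf in 145 and RJ leaf in 105, and all leaves but TM, SK or RJ held 5, 766 and 252. The share of probes above background was highest on TM leaf (24.4%) and lowest on SK leaf (17.2%), and its part in these counts was not tested. AV and RJ leaf had the same share, 20.1%, with 632 and 105 probes alone. RJ leaf correlated with TM leaf at r = 0.96, so these counts are not a like comparison, and what sets them was not tested. The difference was at least 2-fold for 279 of the 632 and for 342 of the 555, where the dim side was set to the lowest signal well above background. Among named genes it was at least 2-fold for 15 of 27 and 36 of 46. SK leaf was the lowest of the other leaves in 25 of those 36 (69.4%), with no share over all genes counted. H2B-1, a histone gene, was an exception, with SK leaf the highest at 1.14 and TM and RJ leaf at -1.25 and -1.06.

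**Figure D5:**
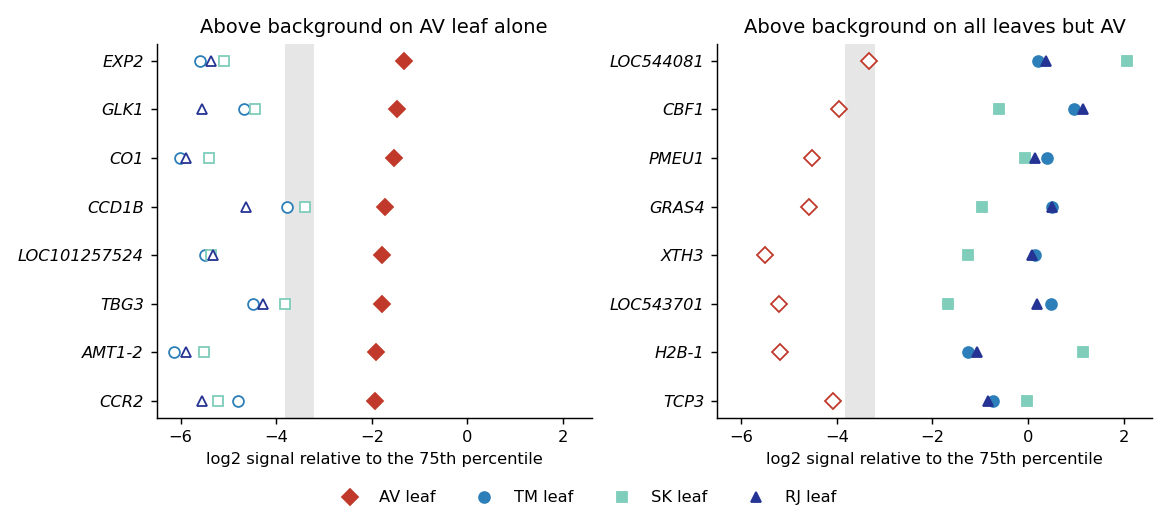
Log2 signal relative to the 75th percentile for the 8 named genes with the largest bounds above background on AV leaf alone (left) and on all leaves but AV (right); filled symbols were well above background, open symbols were not, and the grey band spans the lowest signal well above background of the 4 arrays, -3.80 to -3.23. Filled symbols lie between -1.94 and -1.33 on the left and between -1.68 and 2.08 on the right.

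The fruit arrays took no part in the differences between leaves other than through the probes used for scaling. Of the 46 genes higher in AV leaf 18 were above background on no fruit array (39.1%), against 76 of all 329 (23.1%) and 5 of the 32 lower genes (15.6%). Among probes the shares were 38.5% of those higher, 24.1% of those lower and 20.3% of all 4625. CAT2, gMDH, LCY1, PHOT2, Cry1b, AMT1-3 and CAB4 all lay under -4 in every fruit, so that these genes were highest in AV leaf and dim in fruit. Of the 32 lower genes 23 were above background on all fruit arrays (71.9%), near the 214 of all 329 genes (65.0%). Among probes the order was the reverse, with 54.8% of those lower and 66.7% of all 4625 above background on all fruit arrays.

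AV fruit did not repeat the differences of AV leaf. Of 45 called genes above background on all fruit arrays, 2 differed by 2-fold on the same side in AV fruit against the other fruits, AI and LOC778320, and 5 on the opposite side. The share past 2-fold in AV fruit over all 214 named genes above background on all fruit arrays was not counted. The fruit arrays lay on 2 slides, AV with TM fruit and SK with RJ fruit, and the part of the slides was not tested. Hsc70.1 lay at -4.06 in AV leaf relative to the other leaves and at 1.15 in AV fruit relative to the other fruits, and NCED1 at -1.62 and 1.32. Over 3085 probes above background on all arrays, the deviation of AV leaf from the other leaves correlated at r = -0.23 with that of AV fruit from the other fruits, at 0.29 with that of TM fruit, at -0.26 with that of SK fruit and at 0.22 with that of RJ fruit. Of the probes past 2-fold in both, 16 of 79 went the same way for AV fruit (20.3%), 75 of 90 for TM fruit (83.3%), 10 of 51 for SK fruit (19.6%) and 8 of 11 for RJ fruit (72.7%). Deviations within a tissue cancel by construction, so these values depend on each other. By these counts the leaf array labelled AV went with the fruit arrays labelled TM and RJ and against those labelled AV and SK, and every direction given here rests on the labels.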

How the data were processed

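The authors deposited 1 scanner file per array, holding spot intensity values that, per the file headers, came from version 10.7.3.1 of Agilent Feature Extraction, and a table of log2 values, whose differences between AV leaf and the other leaves lay within 0.02 of those used here, up to 1 constant shift of -0.12, for 99.9% of the probes. That table served as an alternative, and 247 further columns of it were not used. The array design marks 8503 ordinary probes as negative controls, which were left out, and the background flag is that of the scanner software.

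Outlier spots were dropped, replicate spots averaged, and log2 processed signals scaled to each array's 75th percentile over the 3085 probes that passed the background flag on each of the 8 arrays. Probes were named by transcript accession through a RefSeq table of the assembly SLM_r2.1, used for names only: 2936 of 3132 probes with an accession matched, to 1214 genes, of which 885 were not measured here. Probes of a gene were averaged. In 14 of 124 genes read by more than 1 probe the probes differed in sign, and none of these 14 passed 2-fold. Cross-hybridisation between related genes was not tested.

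A gene or probe not well above background on AV leaf, or on all the other leaves, has only a bound: the brighter side's mean was set against the dimmer arrays' mean, each dim array counting with its own signal or, where that was higher, with the lowest signal flagged well above background on it. The members and gene lists were chosen with earlier results of these data known. The lists were planned on gene descriptions, which the table used here does not hold, and were instead matched by gene symbol. Genes were named by these rules: the 15 largest differences each way outside the range of the other leaves, up to 4 members of each list and every member past 2-fold, and the 8 largest bounds each way. Other genes named as list members or relatives were added after their values were seen.

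Values were computed in Python 3.11.15 with pandas 2.3.3. Normalization alternatives used limma 3.58.1 in R 4.3.3, with normexp (offset 50) taking median signals, as the files used here carry no column of mean signals. The counting was tested on simulated data. The number of arrays limits the precision.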

Additional observations from a re-analysis of the deposited data

Results flagged for a closer look

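Among the 4 leaf arrays, 25 sets of values were searched for 1 array that stands apart, and chance alone marks about 1 in 20 such sets. The median level of the light list stood apart in AV leaf, at -0.67, with the other leaves between -2.12 and -1.92. It rests on the same values as the differences given above, in a list chosen with earlier results known, so it adds no support to them. The median level of the amino acid, nitrogen and polyamine list stood apart in SK leaf, at -1.08, with the other leaves between -0.92 and -0.91.

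In 5 genes AV stood on opposite sides of the other accessions in leaf and in fruit, by at least 2-fold in each. These differences between the tissues were not tested. SO was 1.65 above the others in leaf and at -1.51 relative to them in fruit, LOC100736441 at 3.04 and -3.67, and LOC544152 at 1.44 and -1.09. NCED1 lay at -1.62 in leaf and 1.32 in fruit, and Hsc70.1 at -4.06 and 1.15.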

How the results depend on the processing

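No paired analysis was possible because each accession has 1 array per tissue and no test was made. In place of 494 higher and 365 lower probes, and of 245 and 173 beyond every other leaf, a filter asking for signal on AV leaf or on the other 3 gave 1562, 808, 929 and 556, and no filter gave 2426, 1829, 1375 and 945. A 1.5-fold minimum gave 1086, 723, 551 and 360, and a 4-fold minimum 74, 84, 29 and 54. The brightest 50% of probes gave 250 higher and 120 beyond every other leaf. Leaving out TM, SK or RJ leaf in turn gave 475 to 563 higher, 322 to 398 lower, 321 to 331 above every other leaf and 183 to 344 below, the last without SK leaf. Detection on AV leaf alone ran from 665 to 1040 probes (without TM leaf) and on all leaves but AV from 556 to 1247 (without SK leaf), chosen after seeing the data. Other scalings gave 400 to 593 higher and 307 to 424 lower, and the median of all probes moved from 0.09 to 0.20 under spike-in scaling, which rests on 3 of 10 spike-in probes, and to -0.03 with the deposited values. PR1b1 turned to -0.068 against the median of the other leaves and, leaving out SK, RJ or TM leaf, ran from -0.13 to 1.68. Of 78 called genes 46 passed 2-fold in every setting tried, 24 higher and 22 lower, and PR1b1 alone changed sign. Without SK, TM or RJ leaf 63, 72 and 72 of the 78 stayed past 2-fold. Without the filter SDH lay at 0.65, and on its brightest probe PIP1-5 at 0.83. Of 21 list medians 12 changed sign in at least 1 setting and 9 in none. The transport median turned to 0.09 without a filter and to 0.11 with the wider one, the auxin median to 0.16 and 0.01, the heat shock median to -0.26 and the phenylpropanoid median to -0.05 without RJ leaf.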

Other observations

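Most probes of the array have no gene name here. Of the 4625 probes compared 3968 were unnamed (85.8%), and they held 396 of the higher and 302 of the lower probes, 81.3% of all that passed 2-fold. The probe A_96_P001211 lay at 1.34 in AV leaf and at -2.59, -2.98 and -1.99 in TM, SK and RJ leaf, and A_96_P219854 at 1.43 against -2.42, -1.51 and -2.47. The largest differences downward were those of A_96_P255142, at -3.02 in AV leaf against 2.41, 2.57 and 2.59, and of A_96_P014091, at -3.11 against 2.31, 1.75 and 2.37. These probes were bright in every leaf but AV and lay under -5 in every fruit.

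Genes of specialised metabolism were measured in small number. Of 7 such genes gad2, for which the reference lists GAME11 as a synonym, was 1.27 above the other leaves over 10 probes, at 1.61 in AV, 1.11 in TM, 0.14 in SK and -0.22 in RJ leaf. The glycoalkaloid gene GAME1 was 0.65 above and hqt, of chlorogenic acid synthesis, 0.89 above, and THT7-1 lay at -0.53. CCR2 was above background on AV leaf alone, at least 3.09-fold higher, and SSR2 on all leaves but AV, at least 2.40-fold lower.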
